A study of Arabidopsis thaliana with 6 samples.

Results

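The sequences described here are 285 nuclear small RNAs of 20 to 22 nt that lie outside the small RNA, tRNA and rRNA genes annotated in the reference, out of 18124 distinct sequences in a leaf small RNA table of Arabidopsis thaliana. A table sequence was counted if it was 20, 21 or 22 nt long, if all of its perfect genomic matches were nuclear, and if no match lay in an annotated miRNA gene (sense strand), trans-acting siRNA, tRNA, rRNA, small nuclear or small nucleolar RNA gene or in the units of the large rRNAs; 42 were of 20 nt, 126 of 21 nt and 117 of 22 nt. Leaves of untreated wild-type (WT) and rdr1 mutant plants gave 3 libraries per genotype, under 16 h of daylight and a constant 22 °C. RNA was extracted with TRIzol, libraries were made with HD adapters, and single-end reads of 50 nt came from a HiSeq 2500. The reference does not annotate the 5S rRNA arrays as rRNA, so 49 sequences of those arrays remained among the 285, and counts, sums and shares are also given for the 236 others. The labels give no rdr1 allele, plant age or ecotype, and do not say that the libraries came from separate plants, so p-values measure the spread between these libraries, which may be technical. The design asks which small RNAs differ between the genotypes.

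RDR1, an RNA-dependent RNA polymerase, makes a second strand on an RNA template. Dicer-like proteins cut double-stranded RNA into siRNAs of set lengths. A long inverted repeat whose transcript folds back on itself can supply that double strand without an RNA-dependent RNA polymerase. In secondary siRNA production, a miRNA-guided cut starts the copying of a transcript such as that of a pentatricopeptide repeat (PPR) gene, an RNA-binding organelle protein, and the siRNAs then lie in steps from the cut.

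The sequences that carry the results follow, each 5′ to 3′ and read from the table or from the TAIR10.1 genome of RefSeq. The first is a hairpin at chr5:22322699-22322918 on the minus strand, shown because 7 members lie in it, and its capitals mark the bases those members cover.
Chromosome 5 hairpin: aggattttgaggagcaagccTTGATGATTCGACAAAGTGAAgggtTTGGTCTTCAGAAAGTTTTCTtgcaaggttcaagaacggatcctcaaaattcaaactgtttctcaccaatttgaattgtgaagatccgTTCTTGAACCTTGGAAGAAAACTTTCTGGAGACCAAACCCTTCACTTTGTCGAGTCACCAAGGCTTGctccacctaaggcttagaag
The 5S unit, the repeated gene for the smallest ribosomal RNA, is shown from its copy at chr4:3054703-3054822 on the plus strand. Capitals mark the bases covered by the 5 most abundant members.
5S unit: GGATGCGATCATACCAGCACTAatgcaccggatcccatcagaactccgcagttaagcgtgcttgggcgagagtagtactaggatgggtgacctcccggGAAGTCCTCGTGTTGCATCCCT
The arms of inverted repeat 1 are shown by one stretch of each, at chr3:1966469-1966548 on the plus strand and chr3:1967624-1967703 on the minus strand. Capitals mark the bases that differ between them.
Left arm: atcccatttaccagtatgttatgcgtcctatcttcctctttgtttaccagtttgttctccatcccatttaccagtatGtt
Right arm: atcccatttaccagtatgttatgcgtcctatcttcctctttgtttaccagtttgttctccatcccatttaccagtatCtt
A pair of members of the same repeat, with the first base in capitals, form a duplex with overhanging 3′ ends, since the second also matches the plus strand of the right arm.
Member at chr3:1970401-1970421, minus strand: Ctgttatccctctcatactgc
Member at chr3:1963750-1963770, minus strand: Agtatgagagggataacagtt
The 4 PPR members are shown with the first base in capitals, followed by miR161.1 with its seed (bases 2 to 8) in capitals and its site in AT1G62910 with the bases that pair in capitals.
PPR member a, chr1:23299603-23299623, plus strand: Atgggatataaacctgatacc
PPR member b, chr1:23299750-23299770, plus strand: Aacggattatgtaagagaggt
PPR member c, chr1:23206003-23206023, minus strand: Aaaggttgtcaaccagatctg
PPR member d, chr1:23299886-23299906, plus strand: Atgcactcaatctgttcactg
miR161.1: tGAAAGTGactacatcggggt
AT1G62910 site, chr1:23300033-23300053, plus strand: AtCCaaATGTAGTCACTTTCA
The next members had the smallest p-values, and their capitals mark the first base.
Chromosome 4 hairpin member, chr4:6212722-6212742, plus strand: Ttgagcttgtttaaacacttc
AT1G15405 inner member, chr1:5298116-5298136, minus strand: Taagttggtggaacactggct
The last sets share letters, in capitals: a run of T at the 3′ end of copies of one non-coding RNA, the start of members between genes, and the end of others.
AT1G15405 end member, chr1:5297876-5297895, minus strand: ccagctggaccaccaaTTTT
RR3 end member, chr2:17224796-17224815, plus strand: ccgattggaccatcacTTTT
Shared start, first member: TCCGCTGTAGCACatcggtt
Shared start, second member: TCCGCTGTAGCACttcaggc
Shared end, first member: cggTCCCCACAGACGGCGCCA
Shared end, second member: cgtTCCCCACAGACGGCGCCA

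Values are normalised read counts, each scaled by the authors to 8000000 reads of a library total; those totals ran from 4668411 to 9955668 reads, and 1 read was worth 0.804 to 1.71. Members held 0.972% to 1.64% of the table's summed value and 2.51% to 3.66% of that of all 20 to 22 nt sequences. The leaf miRNAs miR158a, miR166a, miR167a and miR172a were abundant in all libraries, from 13319 to 138248, and the annotated miR163 was not among the rows. Of 5 pollen miRNAs, miR845a, miR845b, miR2939 and miR5021 had no row and miR447a ran from 68.4 to 199. No sequence of the table matched the RDR1 gene, so these data do not check the genotype labels. Library fragment length differed within genotypes, and the values that touch the 5S results stand beside them. Every row of the table reached 20.07 in at least 1 library. For 40 of the 285 members that level was reached in 1 genotype alone (7 in WT, 33 in rdr1), and for 21 of the 236 outside the 5S arrays (6 and 15). Such a member is in the table only through the genotype where it is high, so its difference is a description, and any test of it supports nothing.

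Summed over all members, the value was 19518, 29940 and 33153 in WT replicates 1 to 3 and 39348, 26520 and 29507 in rdr1 replicates 1 to 3. WT replicate 1 was lowest and rdr1 replicate 1 highest, and the genotypes overlapped. The mean was 1.15 times as high in rdr1 (27537 ± 7128 against 31792 ± 6712, SD, n = 3 each; two-sided exact permutation p = 0.6, where the smallest p this design allows is 0.1). Outside the 5S arrays the 236 remaining members gave means of 13423 ± 3018 and 13349 ± 4037 (SD, n = 3 each; exact permutation p = 1). The direction of the whole sum turned with the scaling, from a log2 ratio of 0.21 as deposited to -0.26 with median of ratios factors. At the edges of the length window, other nuclear sequences of 19 nt (43 sequences) summed to 1418 to 8630 and those of 20 nt to 4235 to 14138. At the upper edge those of 22 nt summed to 7261 to 11337 and those of 23 nt (99 sequences) to 7567 to 11387.

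**Figure D1:**
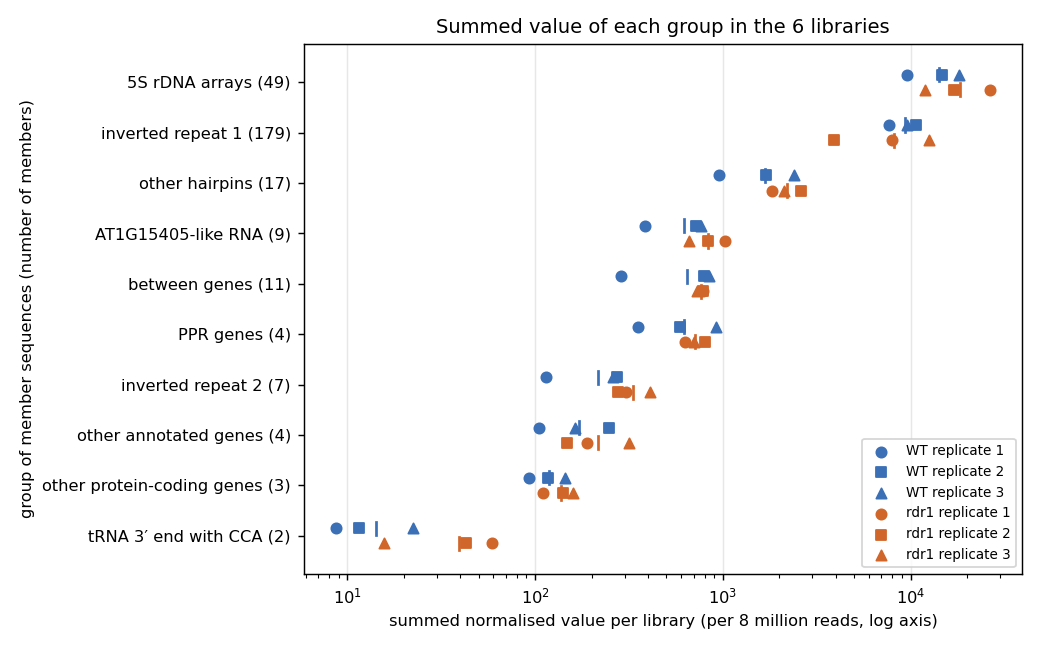
Summed normalised value of each group of members (log axis, scaled to 8000000 reads) in the 6 libraries; points are libraries, shapes are replicates and short bars are means of 3. The 5S arrays and inverted repeat 1 hold most of the value, and inverted repeat 2 is the only group drawn whose genotypes do not overlap.

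Inverted repeat 1 held 179 of the 285 members. It spans chr3:1963723-1970450, with arms of 3249 aligned nt at 98.9% identity and a spacer of 237 nt. The right arm holds most of AT3G06435, and the lncRNA genes AT3G01835 and AT3G01845 lie on either side of the spacer; AT3G06435 encodes an uncharacterized protein, and 104 members matched it, 58 sense and 46 antisense. All matches of 177 of the 179 members lay inside the repeat, and 156 had several matches. Of these members 106 were of 22 nt, 72 of 21 nt and 1 of 20 nt, and 112 began with U. The repeat also held 234 table sequences of 24 nt and 6 of 23 nt, which are no members; the 24-nt ones made up 39.1% to 58.3% of its value at 20 to 24 nt. The 2 members with the highest means (276 and 269), both of 21 nt, lay at the outer tips of the arms, as the map of the repeat shows. For 6 members the table also held the partner of an exact duplex with 2-nt 3′ overhangs, including the pair printed above.

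**Figure D2:**
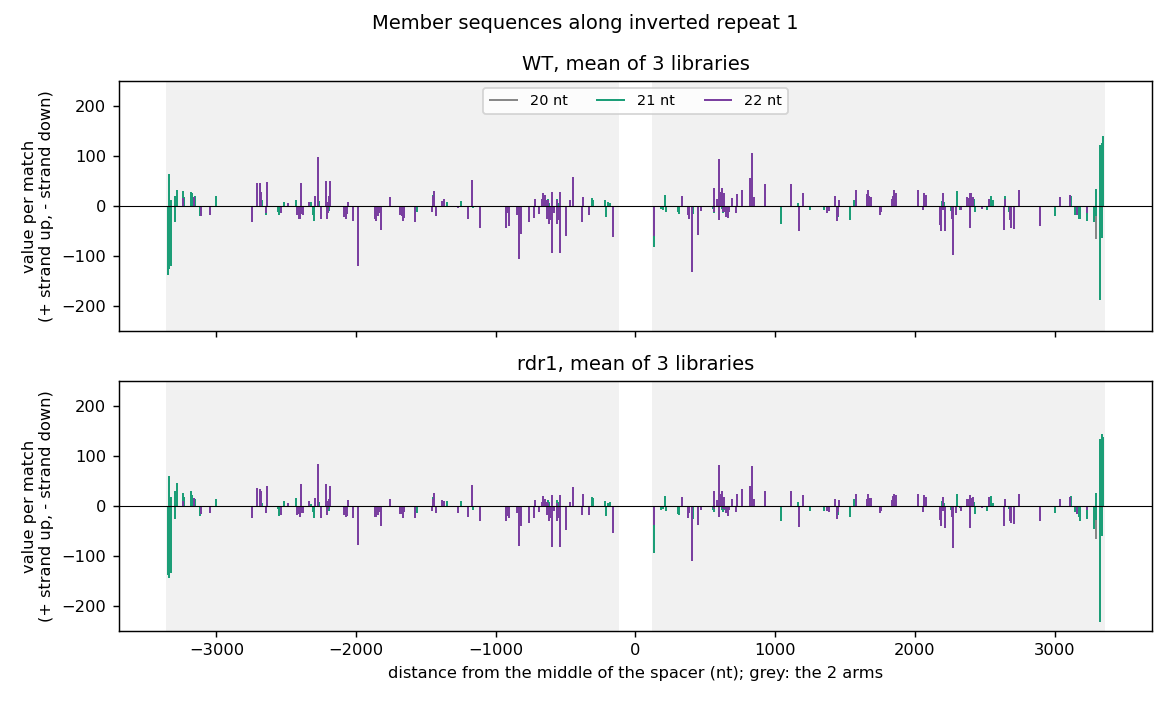
Value of each member at each of its matches along inverted repeat 1 (mean of 3 libraries, divided by the number of matches), against the distance in nt from the middle of the spacer; bars up are on the plus strand, bars down on the minus strand, colours are lengths and grey marks the arms. The members are the same in both panels, and the tallest bars, of 21 nt, stand at the outer tips.

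The summed value of inverted repeat 1 was 7643, 10755 and 9605 in WT replicates 1 to 3 and 7994, 3900 and 12463 in rdr1 replicates 1 to 3. The lowest and the highest library were both rdr1, so the genotypes overlapped (ratio of means 0.870, exact permutation p = 0.8). The rdr1 replicate 2 library was the lowest of the 6 for 142 of the 179 members and rdr1 replicate 3 the highest for 97. Without rdr1 replicate 2 the ratio was 1.096, and without rdr1 replicate 3 it was 0.637. The 24-nt sequences of the repeat were also lowest in rdr1 replicate 2 (2522) and highest in rdr1 replicate 3 (14489). The ratio of 22-nt to 21-nt value was 2.73, 1.70 and 1.53 in WT and 1.31, 1.54 and 1.60 in rdr1 (exact permutation p = 0.3), with WT replicate 1 apart from the others. In the limma fit 140 of the 179 members had lower estimates in rdr1, with a median log2 difference of -0.42 beside 0.47 over all 18043 sequences tested; with median of ratios scaling these medians were -0.88 and 0.03. None of the 179 passed the adjusted threshold. The 1067 other nuclear sequences of 23 and 24 nt that were tested had medians of -0.59 as deposited and -1.04 with median of ratios scaling.

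Single members of the repeat followed the libraries. The member with the highest mean had 150, 249 and 432 in WT and 376, 154 and 294 in rdr1, and the next, 9 nt further in, had 170, 276 and 309 in WT and 324, 154 and 379 in rdr1. Both overlapped between genotypes, with rdr1 replicate 2 the lowest or the second lowest library. The genotypes did not overlap for 3 members, all lower in rdr1, which is 1.68% beside 5.29% of all sequences (2.31% lower). Of these 3, 2 reached 20.07 in WT alone, among them the one with the smallest p, which had 18.9, 26.7 and 39.4 in WT and 10.04, 5.14 and 15.8 in rdr1 (log2 difference -1.43). Another with a small p had 24.7, 24.03 and 28.1 in WT and 23.8, 0 and 26.7 in rdr1, so that 1 library at 0 set its difference. The repeat formed 7 loci with at least 5 members, whose log2 differences ran from -0.46 to -0.07, and all 7 overlapped between genotypes.

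Inverted repeat 2 is a palindrome at chr3:16158283-16161628 whose arms are 90.7% identical. It covers AT3G44570, annotated as a retrotransposon ORF-1 protein, and AT3G44580, an uncharacterized protein. Its 7 members were all of 21 nt and 6 began with U. Members held 86.8% to 98.0% of its value, the rest being 1 sequence of 24 nt, so its length profile differed from that of inverted repeat 1 as a description. The sum was 115, 272 and 260 in WT replicates 1 to 3 and 306, 278 and 408 in rdr1 replicates 1 to 3. All rdr1 libraries were above all WT libraries (ratio of means 1.53, exact permutation p = 0.1, the smallest this design allows), and 3 of the 7 members reached 20.07 in rdr1 alone. At its locus with 5 members, chr3:16160912-16161000, the values were 50.2, 118 and 128 in WT and 174, 157.7 and 186 in rdr1 (log2 difference 0.91, SE 0.506, limma adjusted p = 0.646). For the whole repeat the genotypes overlapped under each of the other 3 scalings, with ratios of 1.26 to 1.37.

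The 5S arrays held 49 members and 40.4% to 67.2% of the members' value. They are tandem copies on chromosomes 1, 3, 4 and 5 that the annotation used here does not mark as rRNA. Members were grouped by matches repeated at close spacing, and the arrays were named from the sequence of the 5S unit. Of the 49 members, 1 lay outside that unit. Reads cannot be assigned to single copies, and 251 of the 5S loci were tested with 0 called. The printed unit of 120 nt has 11 identical copies over all nuclear chromosomes. They are among 38 stretches that start and end with the same 20 nt as the unit. Most of their value lay at the ends of the unit. The 9 members at the 3′ end (positions 99 to 120) made up 79.9% to 82.6% of the 5S value, 3 members at the 5′ end made up 10.7% to 15.5%, and 35 inner members made up 3.87% to 6.70%. The 5 most abundant members, whose bases are in capitals above, held 89.7% to 92.9%. The most abundant of all, the last 20 nt of the unit, had 2783, 5855 and 7335 in WT and 9929, 6046 and 4461 in rdr1. WT replicate 1 was lowest and rdr1 replicate 1 highest. The 21-nt and 22-nt sequences with the same 3′ end had means over 6 libraries of 3623 and 3043, and the 22-nt and 20-nt members at the 5′ end 1110 and 895. All 5 overlapped between genotypes. The inner 5S member with the smallest p had 1.45, 4.45 and 22.5 in WT and 32.6, 18.9 and 12.1 in rdr1, and overlapped as well.

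**Figure D3:**
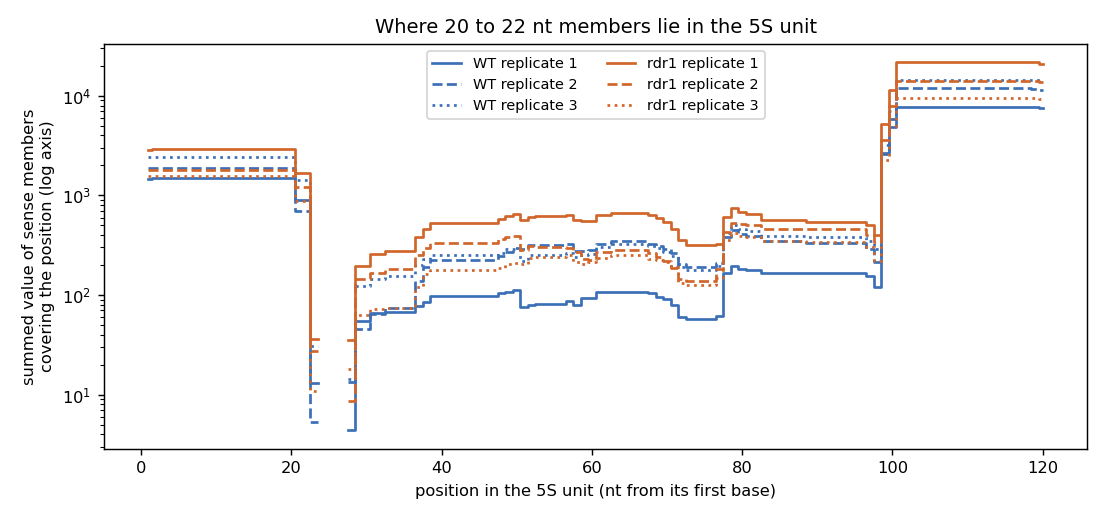
Summed value of the sense 5S members that cover each position of the 120-nt unit (log axis), one line per library; gaps are positions that no member covers. Both ends stand above the inner part in every library, the 3′ end most.

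The 5S sum was 9579, 14723 and 18040 in WT replicates 1 to 3 and 26425, 16979 and 11925 in rdr1 replicates 1 to 3, and the genotypes overlapped (ratio of means 1.31, exact permutation p = 0.5). Table sequences of all lengths that lie in the printed 5S unit, sense and without mismatch, moved with fragment length. Of their value, those of 17 to 19 nt held 5.42% in WT replicate 1 and 35.8% in rdr1 replicate 1. Those of 28 to 34 nt held 31.2% and 3.30%. The part of such shorter and longer sequences in the 5S result was not tested. In limma 46 of 49 members had higher estimates in rdr1, with a median log2 difference of 0.72, beside 11879 of all 18043 sequences (65.8%) with a median of 0.47. With median of ratios scaling 38 of the 49 were higher, with a median of 0.26, beside 51.9% and 0.03 over all sequences. Of the 49 members, 18 reached 20.07 in rdr1 alone and 1 in WT alone, so these counts are a description. The single antisense member, at positions 42 to 63 of the unit, went the other way, with 48.0, 18.7 and 18.5 in WT and 12.5, 15.4 and 3.64 in rdr1. Its genotypes did not overlap, and it is the 1 member of the arrays that reached 20.07 in WT alone.

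Other hairpins held 17 members, all of 21 nt, of which 12 began with U. The printed hairpin of 220 nt on chromosome 5 lies between AT5G55010, an uncharacterized protein gene 363 nt away, and MYB120, a MYB transcription factor gene 1680 nt away, and its predicted fold had a free energy of -150.2 kcal/mol. Its 7 members lay on both arms with 20 or 21 of their 21 bases paired. The member of the 3′ arm that had the smallest p of the 7 had 62.6, 67.6 and 176 in WT and 196, 319 and 116 in rdr1, and overlapped. The sum of the 7 was 352, 580 and 893 in WT and 803, 1083 and 694 in rdr1, with WT replicate 1 lowest and the genotypes overlapping. In the UTR of AT4G13575, 4 members lay on the arms outside MIR3932b, an annotated miRNA gene within the same gene. The strongest of these, at chr4:7890507-7890527 on the minus strand, had 225, 372 and 598 in WT and 385, 569 and 499 in rdr1, the highest mean of any member outside the 5S arrays (441). A further member lay antisense to MIR5663 in an intron of AT1G50440, and another in the ncRNA AT4G26255.

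One hairpin member set the smallest p among all members. The printed sequence at chr4:6212722-6212742 lies 10 nt before the lncRNA AT4G05745 and 573 nt after AT4G09875, with 20 of its 21 bases paired in the predicted fold. It had 0, 0 and 0.804 in WT and 20.1, 18.9 and 20.6 in rdr1, so it was at or near 0 in each WT library and close to 20 in each rdr1 library. These values stand for 1 read over the WT libraries and 44 over the rdr1 libraries. The row reached 20.07 in rdr1 alone and passed the mean of 5 through rdr1 alone, so its place in the table rests on the genotype where it is high, and its tests are given as a description. The fit over loci called it (log2 difference 4.10, SE 0.675, limma adjusted p = 1.2e-06), while the fit over sequences, with the same values and a wider shared spread, did not (SE 1.37, limma adjusted p = 0.589). It was the 1 member locus called of 308 tested as deposited, where 0.245% of all 815 loci were called. A filter at a mean of 20 removes it. The count of member loci called was 9 scaled to the 20 to 22 nt sum and 3 with edgeR. It was 2 with DESeq2, with median of ratios scaling or without WT replicate 3. The 0.245% holds for the fit as deposited alone, and no share of all loci is given for these settings. Outside the 5S arrays 57 of the 308 loci were tested, and they held the 9 loci with an unadjusted p under 0.05 (background 1.72%) and the 8 whose genotypes did not overlap (background 1.96%), 8 higher (background 1.23%) and 0 lower in rdr1 (background 0.736%). A sequence with several matches gives the same values to each of its loci, so the 9 loci hold 7 distinct measurements and the 8 hold 5. As deposited, 779 of all 815 loci and 44 of the 57 had higher estimates in rdr1. Behind the 9, every sequence at chr4:6212722-6212742, chr2:16571998-16572018, chr5:14864877-14864898 and chr3:16158933-16158995 reached 20.07 in rdr1 alone. At chr1:5298116-5298178, 1 sequence reached it in WT alone and the other in rdr1 alone. Behind the 8, the chromosome 4 hairpin member and the RCA fragment at chr2:16571998-16572018 reached 20.07 in rdr1 alone. So did 3 of the 5 sequences of the inverted repeat 2 locus. The counts of 9 and 8 loci are therefore a description.

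PPR genes held 4 members, all of 21 nt, sense and beginning with A. They matched 7 of the 27 genes in a list of PPR genes known to form secondary siRNAs. The positions of 3 members (a, b and c) fell in exact 21-nt steps 5′ of the miR161.1 cut in every gene that holds a predicted site, for example 441 nt and 294 nt from the cut in AT1G62910 and 336 nt in AT1G62670 (RPF2, an RNA processing factor). Member d was out of step by 11 nt in AT1G62910. The predicted cuts of miR161.2 and miR400 were examined too, and 0 of the 4 members were in step with either. The annotation also notes a cut of AT1G63080 and AT1G63130 by an siRNA from TAS2, whose steps were not examined. The genes are similar in sequence and hold the same 3 members, so the genes are not separate observations of the step. PPR motifs repeat with a length that is itself a multiple of 21 nt, and its part in this result was not tested. Member a had 153, 227 and 328 in WT and 210, 348 and 263 in rdr1, and the genotypes overlapped. The sum of the 4 was 353, 591 and 918 in WT and 626, 805 and 704 in rdr1 (ratio of means 1.15, exact permutation p = 0.6). All 4 estimates were higher in rdr1 as deposited and lower with median of ratios scaling.

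Copies of AT1G15405, an annotated ncRNA, held 9 members, in AT1G15405 itself, at the end of RR3 (AT2G41310, a response regulator of cytokinin signalling) in AT2G31141 and at chr5:14295040-14295059 on the minus strand, in a copy that is 92.8% identical. Of these, 6 ended in a run of T, as in the pair printed above. The printed end member matches both AT1G15405 and the chromosome 5 copy, and its reads cannot be assigned to either; it had 156, 259 and 272 in WT and 433, 320 and 253 in rdr1. The inner member at positions 31 to 51 of AT1G15405, its single match, had 24.7, 37.4 and 53.8 in WT and 6.27, 6.85 and 1.21 in rdr1. Every rdr1 library was below every WT library for the inner member (log2 difference -2.91, SE 1.01), which reached 20.07 in WT alone. Its limma adjusted p of 0.71, edgeR adjusted p of 0.064 and DESeq2 adjusted p of 0.0029 are therefore a description. The end member in AT2G31141 had 0, 22.2 and 17.7 in WT and 31.4, 18.9 and 25.4 in rdr1, and overlapped. The sum of the 9 overlapped between genotypes (exact permutation p = 0.3).

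Members between genes numbered 11. Of these, 4 began with the 13 letters printed as the shared start and 4 ended with the 18 letters printed as the shared end, the former on chromosomes 1, 2 and 5 and the latter on chromosomes 2, 3 and 4. The members with the shared start summed to 201, 623 and 572 in WT and 439, 478 and 545 in rdr1. Those with the shared end summed to 43.6, 81.9 and 173 in WT and 266, 206 and 83.6 in rdr1, with both sets overlapping between genotypes. Among the latter, the 20-nt one had 1.45, 12.5 and 37.8 in WT and 60.2, 34.3 and 12.1 in rdr1. A separate pair, not among the 11, lay at chr5:14864877-14864898 on the plus strand, partly antisense to the lncRNA AT5G05485. The pair ended in CCA, the letters added to mature tRNAs, and 16 tRNA genes end in the bases before that CCA. The sum of the pair was 8.73, 11.6 and 22.5 in WT and 59.0, 42.8 and 15.8 in rdr1, and both reached 20.07 in rdr1 alone.

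Of 4 members in other annotated genes, 1 with matches at 3 places had 4.36, 21.4 and 14.5 in WT and 36.4, 32.6 and 55.7 in rdr1. All its rdr1 libraries were above all WT libraries (log2 difference 1.75, limma adjusted p = 0.753). Another 3 members lay in other protein-coding genes. One, at chr2:16571998-16572018 on the minus strand, was a sense fragment of RCA (AT2G39730), which activates Rubisco, with 5.82, 2.67 and 6.43 in WT and 27.6, 18.9 and 9.69 in rdr1. Its genotypes did not overlap, and it reached 20.07 in rdr1 replicate 1 alone. It was the 1 member in a list of 12 leaf photosynthesis genes. Lists of NLR immune receptors (10 genes), small RNA pathway genes (13), auxin receptors (5), MYB genes targeted by TAS4 siRNA (4) and described natural antisense pairs (4) held 0 members.

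Of the 285 members limma called 0 at an adjusted p under 0.05, where 0.216% of all 18043 sequences were called; 3 had an unadjusted p under 0.05 (background 2.45%), edgeR called 0 and DESeq2 called 2. The 2 were the chromosome 4 hairpin member (log2 difference 5.34, DESeq2 adjusted p = 0.016) and the AT1G15405 inner member (-3.61), each of which is in the table through 1 genotype alone. No share of all sequences called is given for edgeR or DESeq2. The genotypes did not overlap for 18 members, 12 higher and 6 lower in rdr1, which is 6.32% beside a background of 5.29% (2.98% higher and 2.31% lower), and 9 of the 18 reached 20.07 in 1 genotype alone. Outside the 5S arrays limma called 0 of 236 members, 3 had an unadjusted p under 0.05, edgeR and DESeq2 called the same counts as above, and 17 (7.20%) did not overlap, 12 higher and 5 lower. The median log2 difference was -0.09 over the 285 members and -0.32 over the 236. It was 0.47 over all sequences and -0.59 over the other nuclear sequences of 23 and 24 nt.

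**Figure D4:**
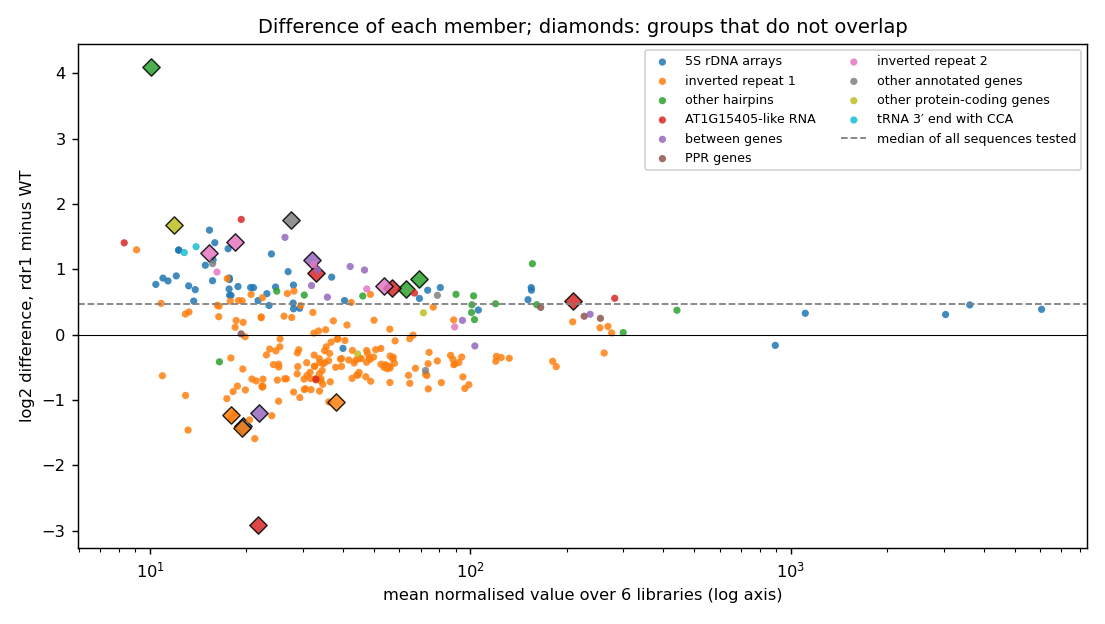
Log2 difference (rdr1 minus WT) of each of the 285 members against its mean value over 6 libraries (log axis), coloured by group; diamonds are members whose genotypes do not overlap and the dashed line is the median of all sequences tested. Inverted repeat 1 lies mostly below 0 and the 5S arrays mostly above, with the chromosome 4 hairpin member and the AT1G15405 inner member farthest out.

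Compared with the 1070 other nuclear sequences of 23 and 24 nt, the members began with U more often and with A less often. U came first in 53.3% of members and 18.2% of the longer sequences, and its share of value was higher in 6 of 6 libraries (two-sided exact sign-flip permutation p = 0.031, the smallest 6 libraries allow, adjusted over 9 comparisons 0.035). Without the 5S arrays 61.0% of members began with U. Inverted repeat 1 alone gave 112 of the 152 members that began with U. The 6 libraries hold the same sequences, whose first base, matches and genes are fixed. The p-values of this comparison therefore describe these libraries and do not test the traits over independent sequences. A match in an annotated gene was found for 87.7% of members, 86.4% of those outside the 5S arrays and 48.1% of the longer sequences, again higher by value in 6 of 6 libraries (exact permutation, adjusted p = 0.035). Inverted repeat 1 held 179 of the 236 members outside the 5S arrays, and 78.6% of all members had several matches. The part of either in this share was not tested. A single genomic match was rarer among members by sequence, with 21.4% of members and 25.8% of those outside the 5S arrays against 49.3%. By value, the shares outside the 5S arrays differed by 0.0063 points on average (exact permutation p = 1). Among sequences with a single match, 34.4% of members and 18.2% of the longer ones lay in a predicted fold-back.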

How the data were processed

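The deposited table gives a normalised signal for each sequence, in 1 column for every library per the file headers; 0 value columns went unused. Each value is a whole number of reads (100% of values above 0, within 0.01 of a read) times 8000000 over a library total. TAIR10 was the authors' build, per the submitters' processing notes, and how reads were trimmed, aligned and filtered is not given in the sources used here. Each row reached 20.07 in at least 1 library.

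Sequences of 17 to 34 nt were matched without mismatch to TAIR10.1 (RefSeq), where any overlap with a gene of the RNA classes named above (sense strand for miRNA genes) excluded a sequence. Members and lists were chosen with earlier results of these data known. Groups were set by tandem arrays, inverted repeats, predicted folds (RNAfold 2.7.2) and similarity (blastn 2.17.0). Loci joined matches of 20 to 22 nt rows less than 100 nt apart, with values divided over all matches.

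Sequences and loci with a mean of at least 5 were tested with limma 3.58.1 (two-sided, empirical Bayes, mean trend) on log2(value + 1), which understates changes of low values, with Benjamini-Hochberg adjustment over the table. Sums were compared by two-sided exact permutation. edgeR 4.0.16 and DESeq2 1.42.0 were run on recovered reads in R 4.3.3; other tools were matplotlib 3.10.9, scipy 1.17.1, pandas 2.3.3 and numpy 2.4.6 in Python 3.11.15. Alternatives were pseudocounts of 0.5, 5 and 20, filters, scalings, joining distances of 30 and 500 nt, 1-match sequences, a replicate block and each library left out. The text names the 10 members with the smallest p, the 10 with the highest mean, called loci, the 10 loci with the highest mean, loci with at least 5 members (5S loci only as counts, as near-identical copies) and list genes with a member; further members were named after their values were seen.

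Libraries of the same genotype differed by more than sampling noise in the members' reads (chi-square per degree of freedom 4.62 to 18.8), so each was counted. In a simulation with known changes, 25% of those of 4-fold and 98% of those of 16-fold were recovered by limma over 17845 sequences, and 67% and 97% over 804 loci. Intervals cover counting error only.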

Additional observations from a re-analysis of the deposited data

How the results depend on the processing

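The log2 ratio of the summed members was 0.21 as deposited, and it turned to -0.26 with median of ratios factors, -0.049 scaled to the 20 to 22 nt sum, -0.060 scaled to the miRNA gene sum and -0.0080 without the 5S arrays (an alternative chosen after seeing the data, as were the group sums by scaling and by library left out). Leaving out each library gave 0.01 to 0.36. The count of member sequences called was 0, and 2 with DESeq2. For the alternatives here, no share of all sequences or loci called is given beside the count of members. The count of member loci called was 1; it was 0 at a mean of at least 20, 2 with median of ratios scaling, 9 scaled to the 20 to 22 nt sum, 3 with edgeR, 2 with DESeq2, and 1 to 2 with a library left out (2 without WT replicate 3). The AT1G15405 locus at positions 5298116 to 5298178 was called under both of those scalings and by edgeR and DESeq2. As deposited it had 24.7, 47.2 and 58.7 in WT and 27.6, 17.1 and 4.85 in rdr1, so its genotypes overlapped. Its inner member is in the table through WT alone and its other member through rdr1 alone, so these calls are a description. The log2 difference of this locus, -1.54, became 0.34 when loci less than 500 nt apart were joined.

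Of 612 values under alternatives for 36 results, 553 kept direction and side, 10 passed the threshold only under the alternative and 49 changed sign; the cause was not tested. For the 5S 3′-end members of 20, 21 and 22 nt the log2 differences of 0.39, 0.46 and 0.31 became -0.081, -0.014 and -0.16 with median of ratios and -0.13, -0.049 and -0.27 with DESeq2. With edgeR the 20-nt one was -0.0040 and the 22-nt one -0.078, and with a library left out the 20-nt one ran from -0.024 to 0.67. The 22-nt 5′-end member turned to -0.14 with median of ratios, -0.14 with edgeR and -0.31 with DESeq2, and the 20-nt one ran from -0.48 to 0.041 with a library left out. The strongest MIR3932b arm member turned to -0.094 and -0.062 (median of ratios, DESeq2). Another was -0.43, -0.24, -0.013 and -0.15 (median of ratios, 20 to 22 nt sum, edgeR, DESeq2) and -0.28 to 0.38 with a library left out. The 2 strongest members of inverted repeat 1 were -0.44, -0.25, -0.34 and -0.46, and -0.34, -0.15, -0.052 and -0.21, under the same 4 alternatives, and -0.35 to 0.41 and -0.13 to 0.52 with a library left out. Its loci ran, with a library left out, from -0.78 to 0.030, -0.83 to 0.043, -0.80 to 0.079, -0.40 to 0.40, -0.44 to 0.37 and -0.84 to 0.037; the locus at 1969968 to 1970444 was 0.15 with 1-match sequences only.

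Replicate numbers did not pair the libraries (correlations of deviations -0.72, -0.30 and -0.53), so the replicate block is given only here: with it the exact permutation p of the class sum was 1, 0 member sequences and 1 member locus were called. With 3 libraries a genotype, changes of 4-fold in single sequences were mostly missed in simulation (25% recovered), so calls of 0 do not show that members did not differ.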
